A study of Mus musculus with 2 samples.

Results

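The genes described here are 10 replication licensing genes of the mouse, chosen by their symbols among the 55415 features of the deposited matrices: Mcm2, Mcm3, Mcm4, Mcm5, Mcm6, Mcm7, Mcm10, Cdc6, Cdt1 and Cdc45. They were measured in single mESC, mouse embryonic stem cells, which divide in culture and can form all tissues of the embryo, of a line that carried GFP under the promoter of the endogenous retrovirus MERVL, which marks cells in a state resembling the 2-cell embryo (2C-like), and an H2B-mIFP label used to track cells. Both libraries came from cells of this kind, and they differ in their label, MERVL GFP positive or MERVL GFP negative, with 1 library in each group. The positive library kept 4596 cells with 138303336 UMIs, the counted transcript molecules. The negative library kept 3832 cells with 156406894 UMIs. With 1 library in each group, a difference between groups cannot be told apart from one between libraries or batches, and no difference has a replicate check.

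Before a cell copies its genome, each replication origin is licensed. The origin recognition complex and the loader Cdc6 sit on the DNA, and Cdt1 brings in the ring of Mcm2 to Mcm7, the core of the replicative helicase. Licensing belongs to the time from late mitosis through G1. In S phase Cdc45 and the GINS complex join the ring to make the active helicase, Mcm10 takes part in that activation, and geminin (Gmnn) and degradation hold Cdt1 back so that no origin fires again. Genes of this kind are known targets of E2F factors, which are active at entry into S phase, and mouse embryonic stem cells are known for a short G1.

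The letters near the start sites hold a motif that some but not all of the genes share. E2F motifs spelled TTTCCCGC, TTTGGCGC, TTTCGCGC and TTTGCCGC were searched on both strands in RefSeq promoters of GRCm38.p6, each 300 bases long; matches of different spellings can overlap. Of the 10 promoters found for 9 of the genes, 6 promoters held a match, or 60%, against 744 of 32851 promoters in the whole table, or 2.26%. The 6 promoters belonged to Mcm3, Mcm5, Mcm6, Mcm7, Cdc6 and Cdt1. Mcm4 had no entry. Mcm3 and Mcm7 each held a further match outside the windows shown here, 38 and 16 bases after the start. The following windows of 30 bases show matches in capitals (1 in each, and 2 that overlap in the Mcm5 window), read 5′ to 3′ on the strand of the gene, for the 5 genes with a match other than Mcm6.
Cdc6, chr11:98908002-98908031, plus strand: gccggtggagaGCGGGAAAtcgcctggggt
Cdt1, chr8:122568035-122568064, plus strand: gggaactaccttTTTGGCGCcatggcgcaa
Mcm3, chr1:20820275-20820304, minus strand: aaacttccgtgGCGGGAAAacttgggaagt
Mcm5, chr8:75109345-75109374, plus strand: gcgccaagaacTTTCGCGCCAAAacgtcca
Mcm7, chr5:138172030-138172059, minus strand: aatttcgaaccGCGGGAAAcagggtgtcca

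The 250 bases before the RefSeq start are shown for Mcm6, the gene furthest down along Zscan4 level in what follows, and for Cdc45, the one that lay above 0. Capitals mark the matches, of which Mcm6 had 3 and Cdc45 had 0; a pair of the Mcm6 matches overlap. Both were picked by their log2 ratio along Zscan4. Of the other members with a match, Mcm3, Mcm5, Mcm7 and Cdc6 had ratios from -0.56 to -0.37, and Cdt1 had -0.01. Of those without a match, Mcm2 had -0.49 and Mcm10 had -0.12. A link between matches and ratios was not tested. A match is a description of the letters and not a binding site.
Mcm6, chr1:128359706-128359955, minus strand: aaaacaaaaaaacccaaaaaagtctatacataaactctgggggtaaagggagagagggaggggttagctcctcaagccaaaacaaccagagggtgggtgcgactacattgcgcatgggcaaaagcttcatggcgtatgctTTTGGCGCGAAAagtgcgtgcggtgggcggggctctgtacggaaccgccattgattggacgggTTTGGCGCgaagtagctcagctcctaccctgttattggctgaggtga
Cdc45, chr16:18811973-18812222, minus strand: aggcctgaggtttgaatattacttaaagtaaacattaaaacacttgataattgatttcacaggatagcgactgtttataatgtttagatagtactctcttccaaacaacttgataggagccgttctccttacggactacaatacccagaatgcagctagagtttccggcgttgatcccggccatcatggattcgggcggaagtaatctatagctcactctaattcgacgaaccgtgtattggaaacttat

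In the GENCODE annotation of GRCm38, the members are protein-coding genes on 7 chromosomes. The loaders lie at chr11:98907801-98923940 (Cdc6, plus strand) and chr8:122568015-122573554 (Cdt1, plus strand). The ring genes lie at chr6:88883474-88898780 (Mcm2, minus strand), chr1:20802968-20820312 (Mcm3, minus strand), chr16:15623897-15637400 (Mcm4, minus strand), chr8:75109569-75128439 (Mcm5, plus strand), chr1:128331590-128359664 (Mcm6, minus strand) and chr5:138164583-138172422 (Mcm7, minus strand). The activation factors lie at chr2:4989714-5012791 (Mcm10, minus strand) and chr16:18780447-18811987 (Cdc45, minus strand). Whether counting used the strand is not given in the sources used here. Mcm7 overlaps Mir25, Mir93 and Mir106b on the same strand and Cops6 and Ap4m1 on the other. Cdt1 overlaps Gm20388 on the same strand, and Cdc45 overlaps Ufd1 on the other. Reads from the shared stretches may therefore not be told apart, and the share of such reads in the counts of these members was not measured.

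The libraries were first checked against their labels. GFP stood at 205 CPM (counts per 1000000 UMIs of the library or class) in the positive and 0.454 CPM in the negative library, and 14 of 16 listed 2C-like markers found in the table summed to 581 and 1.14 CPM. The 10 pluripotency markers, all in the table, summed to 14960 and 14490 CPM, of which Dppa5a alone had 11499 and 10359 CPM. Of the 10 markers 7 were lower in the positive library, among them Utf1 (162 against 448 CPM). The others were Nanog (410 against 192 CPM), Dppa5a and Tdgf1. Of the other cell types looked for, 11 endoderm markers summed to 274 and 139 CPM. The 7 trophoblast markers summed to 91.8 and 57.9 CPM, and the 7 fibroblast markers to 12.8 and 3.14 CPM. Among the trophoblast markers, Krt8 (31.7 against 7.74 CPM) and Krt18 (36.7 against 8.13 CPM) were higher and Tfap2c (18.4 against 39.5 CPM) was lower. Most of the fibroblast sum was Thy1 (9.29 against 2.15 CPM). The median cell held 29554.5 UMIs in the positive and 39099.5 in the negative library, with 2.56% and 1.60% mitochondrial UMIs, and the libraries shared 3 barcodes. The part of depth, mitochondrial share or endoderm cells in the member differences was not tested.

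Across the whole libraries the licensing genes were close to each other or a little lower in the reporter-positive one. The summed ring genes Mcm2 to Mcm7 stood at 870 CPM (865 to 874) in the positive and 991 CPM (986 to 996) in the negative library. Brackets give 95% Poisson intervals, which cover counting error only. None of the 10 members reached a ratio of 1.5, the size used to call a gene among those with at least 10 CPM on 1 side and 50 UMIs in all. By that rule 4.89% of 8042 genes were lower and 17.6% were higher in the positive library. The median log2 ratio of CPM + 1, positive over negative, was -0.18 over the members and 0.14 over all genes tested, and all 10 members lay below that median of all genes.

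Among the loaders, Cdc6 had 28.2 CPM (27.4 to 29.1) in the positive and 37.1 CPM (36.1 to 38.1) in the negative library. Its log2 ratio of -0.38 (interval -0.45 to -0.33) was the lowest of the 10. Cdt1 had 59.7 CPM (58.4 to 61.0) and 67.2 CPM (65.9 to 68.5), a log2 ratio of -0.17. Both loaders were thus lower in the positive library by more than counting error, with Cdt1 by less.

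The ring genes had log2 ratios from -0.27 to -0.06. Mcm4 had 158 CPM (156 to 160) in the positive and 191 CPM (189 to 193) in the negative library, the furthest apart of the 6 on the log2 scale. Mcm3 had 219 CPM against 250 CPM, Mcm6 157 CPM against 181 CPM, and Mcm7 144 CPM against 169 CPM. Mcm2 (94.0 against 98.9 CPM) and Mcm5 (97.2 CPM, interval 95.5 to 98.8, against 99.8 to 103) differed least, with log2 ratios of -0.07 and -0.06. The 6 subunits of 1 ring thus did not share 1 ratio.

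The activation factors were level within a few percent. Mcm10 had 59.5 CPM (58.2 to 60.8) in the positive and 58.2 CPM (57.0 to 59.4) in the negative library, and Cdc45 29.8 CPM (28.9 to 30.7) and 28.5 CPM (27.7 to 29.4). Their log2 ratios of 0.03 and 0.06 became -0.26 and -0.22 under scaling by trimmed means (TMM), which moved the median of all genes from 0.14 to -0.16. It also turned the shares of genes called from 17.6% higher and 4.89% lower to 8.60% higher and 16.1% lower. Under that scaling Cdc6, at -0.67, passed the 1.5-fold size. The directions of Mcm10 and Cdc45 between the libraries therefore depend on the scaling, and those of the other 8 were below 0 under all 4 other scalings tried.

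**Figure D1:**
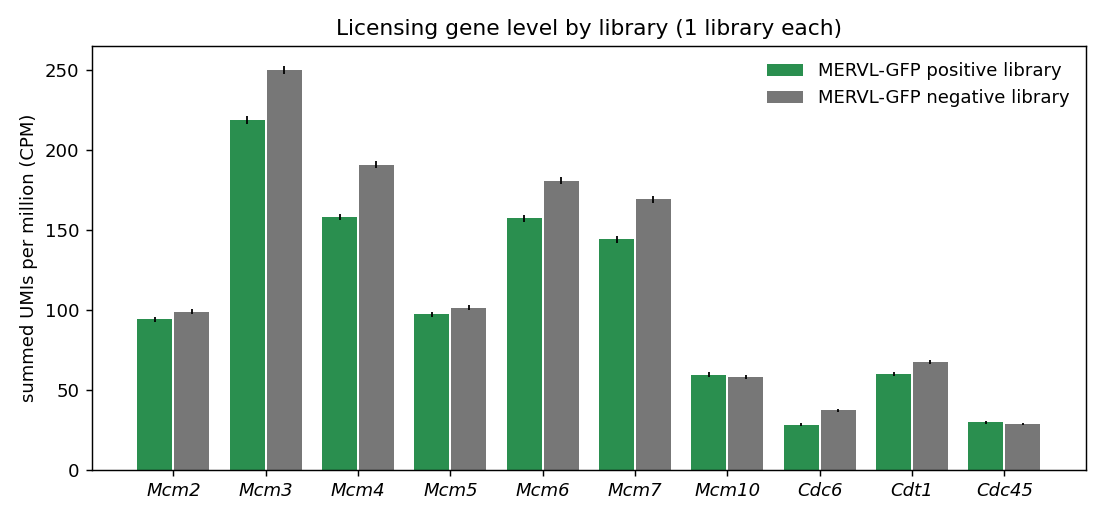
Level of each licensing gene in the MERVL-GFP positive and negative library, as CPM (vertical axis) with 95% Poisson intervals, 1 library per group. Mcm3, Mcm4, Mcm6 and Mcm7 stood lower in the positive library (219 against 250 CPM for Mcm3), while Mcm10 and Cdc45 were nearly level.

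The positive library is a mixture, since GFP and the Zscan4 genes vary from cell to cell. Zscan4a to Zscan4f, a family of 2C-like genes, were summed in each of 4402 positive-library cells after thinning the cell to 10000 UMIs. Of these cells 1970 had 0 Zscan4 UMIs, 1564 had 1 to 4, 367 had 5 to 9 and 501 had 10 or more. Cells with 0 are called Zscan4-zero below; this holds after thinning only, and over all their UMIs they had 32.5 CPM of Zscan4, 123 CPM of GFP and 111 CPM of 2C-like markers. In the negative library 3814 of 3824 cells had 0, and none had 10 or more. The classes are ranges and not cell types, and 173 positive-library cells lay near the upper limit, with 8 to 11 UMIs.

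Along these classes the ring genes stepped down together. Their summed level was 938 CPM (930 to 945) in Zscan4-zero cells, 865 CPM (857 to 874) with 1 to 4, 721 CPM (705 to 738) with 5 to 9 and 650 CPM (635 to 665) with 10 or more. Each of the 6 subunits was lower in each higher class, although between the 2 highest classes only Mcm3 and Mcm6 had intervals that lay apart. The Zscan4-zero cells lay nearest to the negative library's 991 CPM.

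Of the subunits, Mcm6 had the widest span, with 173, 156, 130 and 105 CPM in the 4 classes. Its log2 ratio of the highest class over the class at 0 was -0.71 (interval -0.81 to -0.63), and it alone of the 10 members passed the 1.5-fold size. By the same rule 17.0% of 8426 genes were lower and 15.6% higher, so 1 of 10 is not above the background. Mcm3 followed with 237, 220, 177 and 160 CPM and a log2 ratio of -0.56, just short of that size. The remaining subunits had log2 ratios of -0.49 for Mcm2 (102 to 72.1 CPM), -0.48 for Mcm7 (156 to 111 CPM), -0.46 for Mcm5 (103 to 74.8 CPM) and -0.41 for Mcm4 (168 to 126 CPM).

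The loaders parted. Cdc6 had 30.1, 27.7, 24.9 and 23.0 CPM along the classes, a log2 ratio of -0.37 (-0.58 to -0.20). Cdt1 had 61.5, 58.6, 52.7 and 61.2 CPM, and the ends differed by a log2 ratio of -0.01 (-0.13 to 0.11). Cdt1 was lowest in the class with 5 to 9 Zscan4 UMIs, and its levels at both ends were the same within counting error.

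The activation factors did not follow the ring. Mcm10 had 61.4, 59.4, 53.2 and 56.3 CPM, a log2 ratio of -0.12 whose interval ended just below 0, equal to the median of all genes tested (-0.12). Cdc45 had 29.8, 28.4, 29.3 and 36.0 CPM, and its log2 ratio of 0.26 (0.11 to 0.43) was the only one above 0. Its level in the highest class (32.6 to 39.8 CPM) lay above the intervals of the classes at 0 and at 1 to 4. Per 1000 UMIs of the summed ring genes, Cdc45 had 31.8 UMIs in Zscan4-zero cells and 55.5 in the highest class, while Cdt1 had 65.6 and 94.2, and Cdc6 32.1 and 35.4.

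Over the members the median log2 ratio was -0.44, with 9 of 10 below 0, against -0.12 over all genes tested, of which 58.6% were below 0. Other features of the cells moved along the same classes. From the class at 0 to the highest class, median UMIs per cell went from 33015 to 20262, mitochondrial UMIs from 2.35% to 3.20%, summed pluripotency markers from 16147 to 9293 CPM and summed endoderm markers from 303 to 164 CPM. Summed trophoblast markers went from 107 to 51.4 CPM and fibroblast markers from 10.8 to 18.2 CPM, with Postn and Lum at 0 in the highest class. Without cells holding 5 or more endoderm marker UMIs, and among cells of 15000 to 30000 UMIs, all 6 ring genes remained below 0. In the latter set, chosen after seeing the data, Mcm6 had -0.53 and no longer passed the 1.5-fold size. There Mcm5 had -0.26, Cdc6 -0.15 and Mcm10 0.00, closer to 0 than over all cells, and Cdc45 had 0.50. The median of all genes tested was -0.15 in that set, so Cdc6 lay near it.

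**Figure D2:**
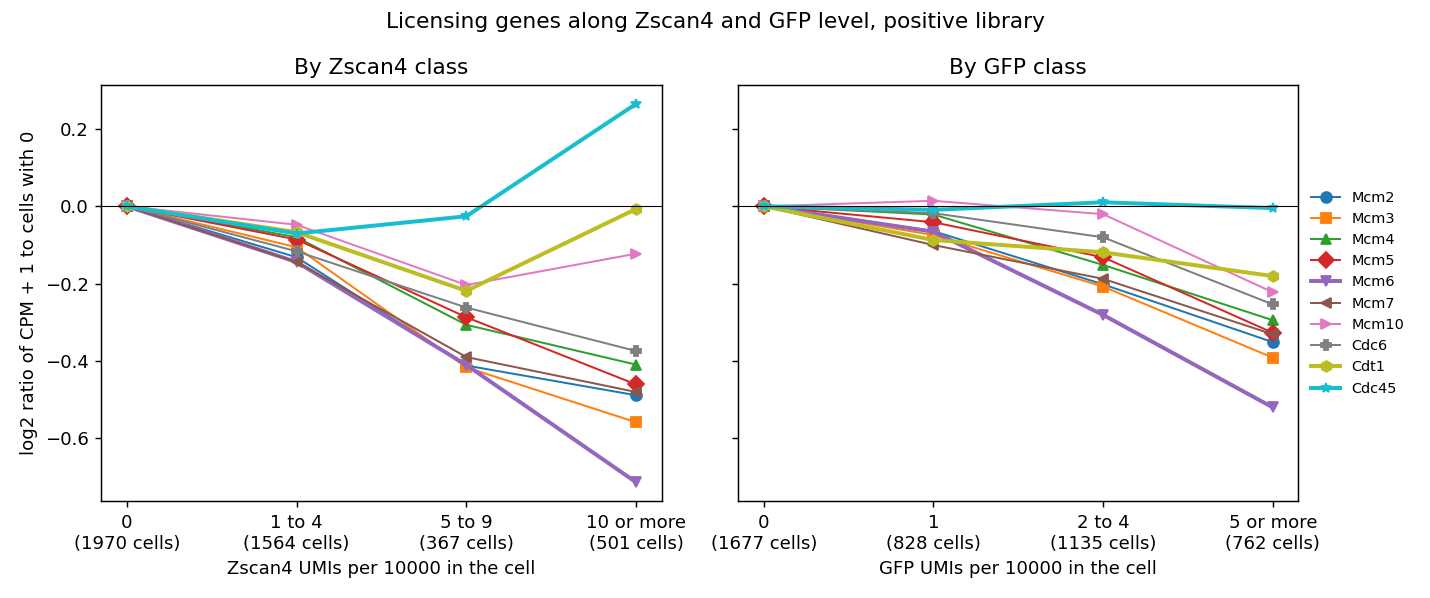
Log2 ratio of CPM + 1 (vertical axis) of each licensing gene in classes of positive-library cells by Zscan4 (left) and GFP (right) UMIs per 10000, each relative to cells with 0; cell numbers stand below the classes. The Mcm2 to Mcm7 lines descend, to -0.71 for Mcm6, while Cdt1 and Cdc45 end at -0.01 and 0.26 along Zscan4.

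Along GFP level the ring genes and Cdc6 had smaller drops than along Zscan4, while Mcm10 and Cdt1 had larger ones. Of the thinned positive-library cells 1677 had 0 GFP UMIs, 828 had 1, 1135 had 2 to 4 and 762 had 5 or more; 575 cells lay near the upper limit, with 4 to 6. The summed ring genes stood at 942, 902, 820 and 725 CPM in these classes. None of the 10 members passed the 1.5-fold size between the highest class and the class at 0, where 9.21% of 8191 genes were lower and 7.86% higher.

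Mcm6 again had the lowest log2 ratio, -0.52 (-0.59 to -0.46), with 175, 167, 144 and 122 CPM. Mcm3 went from 239 to 182 CPM (-0.39), and Cdc6 from 29.5 to 24.5 CPM (-0.25). Mcm10 (61.0 to 52.2 CPM, -0.22) and Cdt1 (62.9 to 55.4 CPM, -0.18) were also lower in the highest class by more than counting error. The median of all genes was -0.12. Cdc45 had 29.8 CPM at 0 and 29.7 CPM in the highest class, level on the CPM scale. TMM moved the median of all genes from -0.12 to -0.01 and the shares called to 9.71% higher and 5.75% lower. Under TMM the log2 ratios were 0.10 for Cdc45, -0.07 for Cdt1, -0.11 for Mcm10 and -0.15 for Cdc6. The ring genes then had -0.41 to -0.18. The difference between the Zscan4 and GFP splits was not tested, and both divide the same cells.

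Cells were then split by both readouts. With 0 of both after thinning, 1043 cells had 973 CPM of summed ring genes. The 160 cells with 5 or more GFP UMIs and 0 Zscan4 UMIs had 771 CPM, the 53 cells with 10 or more Zscan4 UMIs and 0 GFP UMIs had 622 CPM, and the 201 cells high in both had 628 CPM. Ring gene levels were thus lower with either readout high, and lowest where Zscan4 was high whatever the GFP. Mcm6 had 182, 132, 110 and 97.5 CPM in these 4 sets, and Cdc45 31.4, 27.7, 29.1 and 35.0 CPM with overlapping intervals.

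In an alternative chosen after seeing the data, the 1970 Zscan4-zero cells of the positive library were set against the negative library. Zscan4 stood at 32.5 CPM in these cells and 0.627 CPM in the negative library, so the set is low in Zscan4 and not free of it. GFP stood at 123 against 0.454 CPM and the 2C-like markers at 111 against 1.14 CPM. The member median was -0.07 against 0.15 over all genes tested, 0 of 10 passed the 1.5-fold size (2.88% of genes lower, 12.0% higher), and 6 of 10 lay below 0. All 10 lay below the median of all genes tested. Cdc6 at -0.29 and Mcm4 at -0.18 remained the lowest, and Mcm2 and Mcm5 were at 0.04 and 0.03.

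Ccnb1 encodes cyclin B1, which builds up toward mitosis, so its transcript was used to set cells late in the cycle apart from the rest. Because most cells had few Ccnb1 UMIs, the split fell at 0 or 1 thinned UMIs (low) against 2 or more (high). It gave 2153 low and 2249 high cells in the positive library and 2300 low and 1524 high in the negative. Many cells lay at the limit itself, with 2150 positive-library and 2054 negative-library cells at 1 or 2 UMIs. The differences of the licensing genes across it were small, and so were those of nearly all genes. In the positive library the member median was -0.06, with 0 of 10 past 1.5-fold (0.0126% of 7921 genes lower and 0.732% higher). In the negative library it was -0.05, again with 0 of 10 (0.00% of 7163 genes lower and 0.154% higher), and all 10 members lay below the median of all genes, 0.01. Cdc6 stood near the low end of all genes there, with 0.195% of them lower, followed by Mcm6 with 2.85%, Mcm4 with 2.95% and Mcm10 with 5.42%.

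Cdc6 had the lowest ratio in both libraries. It had 29.5 CPM in Ccnb1-low and 27.1 CPM in Ccnb1-high cells of the positive library (-0.12), and 39.4 and 33.8 CPM in the negative library (-0.22). Mcm6 had 164 and 152 CPM in the positive library and 186 and 173 CPM in the negative, -0.11 in both. Cdc45 had 28.5 and 30.9 CPM in the positive library, a log2 ratio of 0.12 (0.03 to 0.21), and 29.0 and 27.8 CPM in the negative, -0.06 (-0.15 to 0.03). In finer steps of 0, 1, 2, 3 or 4, and 5 or more Ccnb1 UMIs, the summed ring genes had 889, 888, 892, 836 and 816 CPM in the positive library and 1011, 1006, 994, 947 and 857 CPM in the negative. The levels were flat up to 2 Ccnb1 UMIs and lower beyond. On the sides of the Ccnb1 split the library comparison had a member median of -0.18 among Ccnb1-low cells (0 of 10 past 1.5-fold; 4.34% of genes lower, 16.4% higher) and -0.16 among Ccnb1-high cells (0 of 10; 5.67% lower, 18.4% higher). Cdc45 changed sign between them, from -0.03 (-0.11 to 0.06) to 0.15 (0.06 to 0.24).

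A split by more transcripts separated the genes further. The 21 other G2/M genes of the list were summed per thinned cell, and cells of both libraries were divided into 3 terciles of about equal size, the lowest with at most 27 such UMIs and the highest with at least 43. In the negative library the member median of the highest over the lowest tercile was -0.34, against 0.03 over all genes tested. Cdc6 passed the 1.5-fold size there, with 44.3 CPM in the lowest, 37.8 in the middle and 24.1 in the highest tercile, a log2 ratio of -0.85 (-0.98 to -0.77). It was 1 of 10 members, where 0.288% of 7296 genes were lower and 2.03% higher. Mcm6 had 204, 178 and 144 CPM (-0.50) and Mcm4 212, 193 and 153 CPM (-0.46), while Mcm7 differed least, with 173, 171 and 160 CPM (-0.11).

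In the positive library the same split gave a member median of -0.12 and 0 of 10 past 1.5-fold (0.596% of 8056 genes lower, 4.13% higher). Cdc6 had 30.1, 33.1 and 23.4 CPM (-0.35) and Mcm6 174, 171 and 139 CPM (-0.32). From the lowest to the highest tercile of this library, summed 2C-like markers went from 398 to 740 CPM, Zscan4 from 185 to 445 CPM, endoderm markers from 348 to 243 CPM, trophoblast markers from 150 to 76.3 CPM and fibroblast markers from 11.1 to 14.7 CPM. In the negative library these markers went from 1.26 to 1.04, 0.594 to 0.448, 137 to 135, 53.9 to 64.0 and 3.03 to 3.33 CPM, and their part in the member values was not tested. Cdc45 had opposite signs in the libraries. It had 25.4, 31.7 and 30.6 CPM in the positive library, a log2 ratio of 0.26 (0.15 to 0.39), and 31.5, 27.9 and 24.3 CPM in the negative, -0.36 (-0.48 to -0.26). Each of the 10 members had a higher ratio in the positive than in the negative library, a difference that was not tested.

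**Figure D3:**
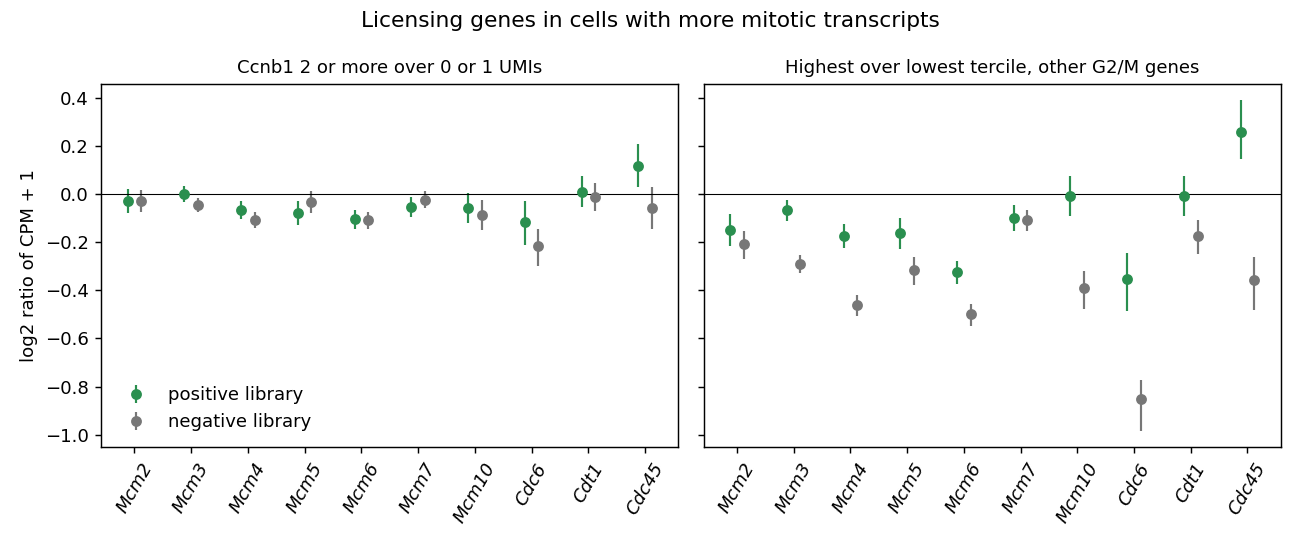
Log2 ratio of CPM + 1 (vertical axis) of each licensing gene between cells with more and fewer mitotic transcripts, by Ccnb1 alone (left) and by 21 other G2/M genes (right), in each library, with 95% counting intervals. The left panel lies near 0; on the right Cdc6 reaches -0.85 in the negative library and Cdc45 lies at 0.26 in the positive and -0.36 in the negative library.

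High-Zscan4 cells also carried more mitotic transcripts. Ccnb1 stood at 180 CPM in Zscan4-zero cells and 277 CPM in the highest class, and the summed G2/M genes at 4265 and 5303 CPM. The Zscan4 comparison was therefore repeated within Ccnb1 classes. Among Ccnb1-low cells (162 against 1031) the member median was -0.43 and Mcm6 had 102 against 176 CPM (-0.79). Among Ccnb1-high cells (339 against 939) the median was -0.42 and Mcm6 had 106 against 169 CPM (-0.66). In both classes Mcm6 was the 1 member past 1.5-fold, with 16.9% and 17.5% of genes lower and 14.3% and 16.5% higher, and Cdc45 lay above 0 at 0.25 and 0.23. Cdt1 had -0.15 in Ccnb1-low and 0.06 in Ccnb1-high cells, with intervals that include 0. The ring gene values were thus about as large within the Ccnb1 classes as over all cells.

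**Figure D4:**
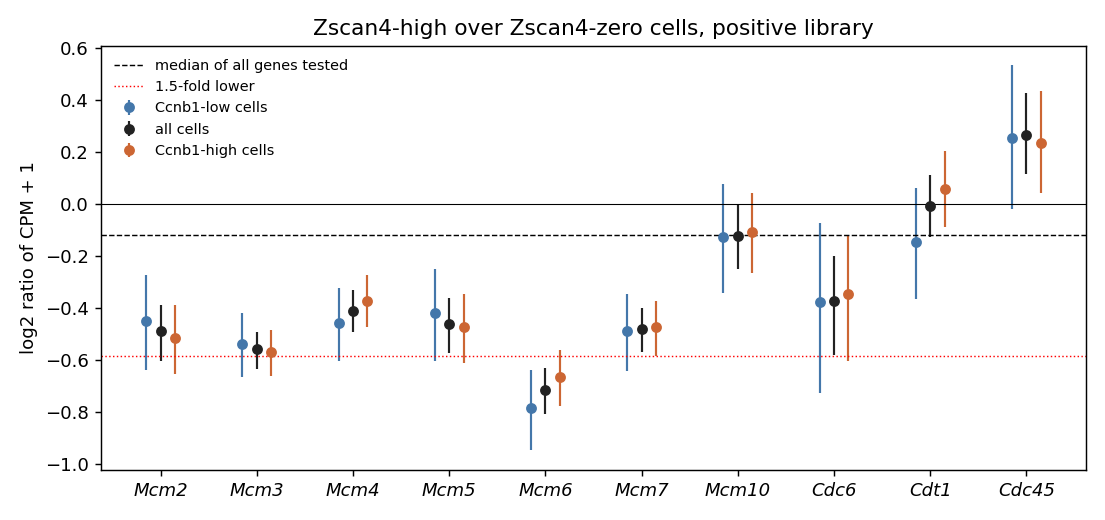
Log2 ratio of CPM + 1 (vertical axis) of each licensing gene, positive-library cells with 10 or more over cells with 0 thinned Zscan4 UMIs, for all cells and within Ccnb1-low and Ccnb1-high cells, with 95% counting intervals; dashed line, median of all genes tested; dotted line, 1.5-fold lower. The 3 intervals of each gene overlap, with Mcm6 between -0.79 and -0.66; Cdt1 goes from -0.15 to 0.06.

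Within the terciles by the 21 other G2/M genes, a split of this comparison chosen after seeing the data, the members diverged. In the lowest tercile, with 72 high-Zscan4 cells against 575, the member median was -0.89 and 9 of 10 passed the 1.5-fold size, against 24.9% of 8272 genes lower, 12.9% higher and a median of -0.22 over all of them. Mcm3 had 108 CPM (91.7 to 127) against 240 CPM (-1.14), Mcm7 77.1 against 159 CPM (-1.03) and Cdc6 13.1 CPM (7.76 to 20.7) against 33.4 CPM (-1.29). Cdc45 was also lower there, with 17.5 against 27.1 CPM (-0.61, interval -1.29 to -0.04). Only Cdt1, with 53.9 against 60.5 CPM (-0.17), did not pass. The drop was not particular to the members. Of the pathway lists described below, 9 of 10 S phase entry genes (median -0.79) and 14 of 25 fork genes (-0.68) were lower in this tercile. So were 7 of 13 firing factors (-0.61) and 4 of 13 genes of Cdt1 turnover and E2F control (-0.25). Of 10 licensing partners tested, 1 was lower and 2 were higher (-0.28).

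In the highest tercile, with 304 against 708 cells, none of the 10 passed (16.3% of 8498 genes lower, 15.8% higher) and the member median was -0.25. The 6 ring genes still lay below 0, from -0.49 for Mcm6 (107 against 151 CPM) to -0.21 for Mcm4 (131 against 152 CPM). Cdc6 was level at 23.9 against 23.1 CPM (0.05). Cdc45 had 41.1 CPM (36.5 to 46.1) against 29.5 CPM (0.46), Cdt1 67.8 against 58.0 CPM (0.22) and Mcm10 62.8 against 55.7 CPM (0.17). So among cells with many mitotic transcripts the ring genes were lower and the activation factors and Cdt1 higher in high-Zscan4 cells by more than counting error, and among cells with few, 9 of 10 members were lower. The high-Zscan4 cells of the lowest tercile were the shallowest set, with a median of 16855.5 UMIs against 31360, and the part of depth was not tested.

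Between the libraries the same terciles gave a member median of -0.23 in the lowest (1081 against 1740 cells; 3.73% of genes lower, 15.2% higher) and -0.05 in the highest (1857 against 892 cells; 6.37% lower, 19.4% higher), with 0 of 10 past the size in either. Cdc6 had -0.54 in the lowest tercile and -0.04 in the highest, and Cdc45 -0.30 and 0.32. The members of the positive library thus lay further below the negative library among cells with few mitotic transcripts. For GFP the lowest tercile (152 against 506 cells) had a member median of -0.63 with 5 of 10 lower past the size (13.8% of genes lower, 8.84% higher), and the highest tercile (379 against 600 cells) -0.094 with 0 of 10 (8.97% lower, 7.30% higher). The medians of all genes tested were -0.164 in the lowest and -0.106 in the highest tercile. In the highest tercile 5 of 10 members lay below that median, so the members as a set were not lower than other genes there.

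**Figure D5:**
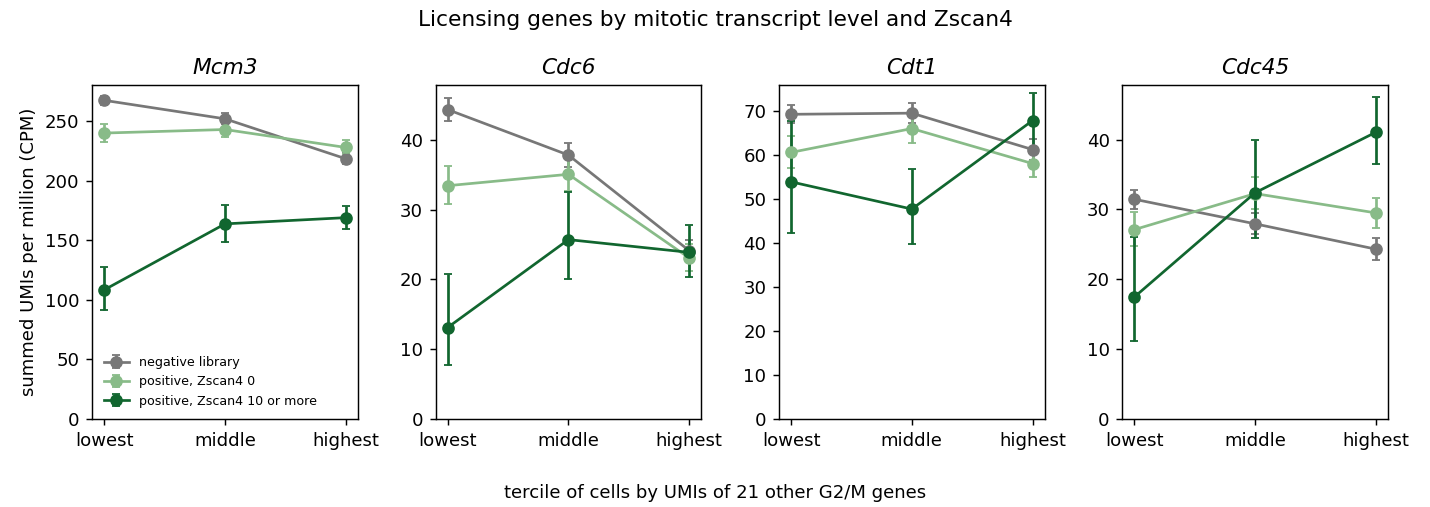
Level (vertical axis, CPM, with 95% Poisson intervals) of Mcm3, Cdc6, Cdt1 and Cdc45 in the lowest, middle and highest tercile of cells by the 21 other G2/M genes, for the negative library and for positive-library cells with 0 and with 10 or more thinned Zscan4 UMIs. In the lowest tercile the high-Zscan4 cells lie below both other sets for Mcm3, Cdc6 and Cdc45; in the highest tercile they lie above both for Cdc45 (41.1 CPM against 29.5 and 24.3).

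The other genes of the pathway were described from lists by role. Their counts are to be read against all genes, of which 17.6% were higher and 4.89% lower between the libraries (median 0.14), and 15.6% higher and 17.0% lower along Zscan4 (median -0.12). Of 11 licensing partners tested, 1 was lower and 1 higher in the positive library, with a median of 0.33. Gmnn, the inhibitor of Cdt1, was the lower one, with 143 against 274 CPM (-0.93), and it was also lower in high-Zscan4 cells (99.4 against 164 CPM, -0.72). Along Zscan4, 3 partners were higher and 1 lower, with a median of 0.05. Orc1, the large subunit of the origin recognition complex, was among the higher ones with 64.3 against 40.4 CPM (0.66), and Orc6 had 195 against 183 CPM (0.09). The other 2 were Orc4 and Mcm9, named here after their values were seen. Mcm9, a helicase of the Mcm family outside the ring, had 55.9 against 16.6 CPM (1.69).

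Of 15 firing factors 13 were tested; 3 were higher and 0 lower in the positive library (median 0.02), and 2 were higher and 1 lower along Zscan4 (median -0.09). Gins2, a subunit of the complex that joins the ring with Cdc45, had 35.0 against 70.2 CPM along Zscan4 (-0.99), opposite in sign to Cdc45. The kinase genes Cdc7 and Dbf4, which act on the loaded ring, had 15.9 against 16.1 CPM (-0.01) and 184 against 170 CPM (0.11). Of the cyclins that drive S phase entry, Ccne2 was higher with 29.1 against 10.9 CPM (1.34), and Ccne1 had 101 against 107 CPM (-0.09).

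Of 25 fork genes 1 was higher and 4 lower along Zscan4 (median -0.22), and 0 higher and 3 lower between the libraries (median -0.11). Pcna, the sliding clamp, had 246 against 251 CPM along Zscan4 (-0.03) and 253 against 272 CPM between the libraries (-0.11). Of 10 genes of S phase entry 0 were higher and 2 lower along Zscan4 (median -0.21), and 0 passed between the libraries (median -0.14). Of 17 genes of Cdt1 turnover and E2F control 15 were tested, with 2 higher and 1 lower along Zscan4 (median -0.04) and 1 higher and 0 lower between the libraries (median 0.13).

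The 22 G2/M genes, which mark the later part of the cycle, had a median of 0.31 between the libraries, with 5 higher and 0 lower, and 0.38 along Zscan4, with 4 higher and 1 lower. The medians lay above those of all genes, 0.14 and -0.12, while the counts of higher genes were near the shares of all genes, 17.6% and 15.6%. Ccnb1 itself had 194 against 149 CPM between the libraries (0.38), below the 1.5-fold size, and passed it along Zscan4 at 0.62.

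The pattern of each member over cell sets was compared with that of the other 9. Over 10 sets of at least 50 cells (library by Zscan4 class by Ccnb1 class), the Pearson correlation of log2(CPM + 1) with the sum of the other 9 was 0.95 to 0.99 for the ring genes and 0.92 for Cdc6. It was 0.66 for Mcm10, 0.54 for Cdt1 and -0.58 for Cdc45. The sets share 2 libraries, their depth and their pool of cells, so these values describe the data and have no test. The summed members ranged from 822 CPM in Zscan4-high, Ccnb1-low cells to 1204 CPM in Ccnb1-low cells of the negative library.

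Of 8032 other genes, the 10 most like the summed members over these sets were Dnajc7, Lyar, Gjc1, Eif1a, Stx16, Dapk1, Zfp277, Gtsf1l, Cdk2ap1 and Rp9, with correlations from 0.997 to 0.990. Lyar had 299 CPM in the set with the lowest members and 460 CPM in the set with the highest, and Dnajc7 127 and 208 CPM.

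In single cells the licensing transcripts were sparse, with mean UMIs per thinned cell from 0.277 (Cdc6) to 2.07 (Mcm3) in the positive library. At such means a variance over the mean near 1 does not show that cells differ little. After thinning, the variance over the mean of UMIs per cell was 1.08 to 1.32 for the 10 genes in the positive library and 1.04 to 1.30 in the negative, where counting alone gives about 1. Among the 200 genes nearest in mean, these values stood from percentile 18 to 84.5 and from percentile 22 to 86. Ccnb1 had 1.65 and 1.27. Mcm6, at 1.32 and 1.30, and Mcm3, at 1.29 and 1.30, had the highest variance over the mean of the members, and single cells held between 0 and 11 UMIs of Mcm6. Among genes near in mean, Cdc6 stood highest of the members, at percentile 84.5 in the positive and 86 in the negative library. Mcm6 stood at 70 and 83 and Mcm3 at 50.5 and 73.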

How the data were processed

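For each of the 2 libraries the authors deposited a sparse matrix of counts, whole numbers by gene and barcode. They were read as UMIs since the barcodes have 16 bases and the library source is single-cell. The submitters' processing notes name mm10, FastQC 0.11.2, Trim Galore 0.6.4 and STAR 2.7.6a, without roles. The counter, annotation and cell calling are not given in the sources used here, and the extraction protocol in the labels describes kits for bulk RNA. There were 901 repeated symbols among the features; the members were matched by symbol.

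Cells with at least 1000 UMIs, 500 genes and at most 20% mitochondrial UMIs were kept. No doublet caller was run. UMIs were summed per library or cell class and scaled to CPM. Log2 ratios used CPM + 1. Level intervals are exact Poisson and ratio intervals exact conditional ones of the CPM ratio without the pseudocount, at 95%, covering counting error only. Classes used cells thinned without replacement to 10000 UMIs; 194 cells of the positive and 8 of the negative library were too shallow; levels used all UMIs of the classed cells. Ties in Ccnb1 turned the planned terciles into at most 1 and at least 2 UMIs.

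With 1 library per group, and cells of 1 library not being replicates, no test was run; called means past 1.5-fold. The members and lists were chosen with earlier results of these data known. Named were all 10 members, 10 listed pathway genes, the 10 genes most like the members, and others named as chosen later; Gm8300 and Dux of the 2C-like list were not matched. Alternatives changed the cell filter, scaling (TMM from edgeR 4.0.16, median of ratios, others), pseudocount, size rule, thinning and classes. The steps were tested on simulated data. Software was R 4.3.3, matplotlib 3.10.9, pandas 2.3.3, scipy 1.17.1, numpy 2.4.6 and Python 3.11.15.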

Additional observations from a re-analysis of the deposited data

Results flagged for a closer look

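Cdc45 stood out because its difference between cells with many and few mitotic transcripts had opposite signs in the libraries. The log2 ratio of the highest over the lowest tercile by the 21 other G2/M genes was 0.26 for positive-library cells and -0.36 for negative-library cells, with counting intervals off 0 in both. The difference between the libraries was not tested, since each group has 1 library, and the terciles come from an alternative to the Ccnb1 split.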

How the results depend on the processing

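No paired analysis was possible because there is only 1 library per group. Of 1070 single-member values under the alternatives, 843 stayed within the counting interval, 227 moved out of it and 61 had another sign than the value as reported. Among the 61 were Cdc45 along GFP under 11, Cdt1 along Zscan4 under 7 and Mcm10 between the libraries under 7. Mcm6 along Zscan4, the 1 called value, kept its sign. The 843 include values that could not move. A changed size rule or no filter on low values leaves a log2 ratio as it is. Ccnb1 terciles set within each library gave the same split as over both. The 843 therefore overstates how many values were put to a check. Alternatives restricted to 15000 to 30000 UMIs, to terciles of the other G2/M genes within a comparison, to Zscan4-zero cells of the positive library, and Ccnb1 at 0 against 3 or more were chosen after seeing the data. Between the libraries the member median of -0.18 became -0.47 under TMM and -0.47 under median of ratios, and the members lower became 1 under both and 1 with the size lowered to a log2 ratio of 0.32, from 0; 16.1% of all genes were lower under TMM and 14.1% with the lowered size.

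Along Zscan4 the count of members lower, 1 of 10, was 2 for thinned sums, 7 at that lower size, 0 at 2-fold, 0 among cells of 15000 to 30000 UMIs, 9 and 0 in the lowest and highest tercile of other G2/M genes, and 0 and 2 for high classes from 5 and from 20 UMIs. Of all genes 19.8%, 33.8%, 4.40%, 19.8%, 24.9%, 16.3%, 11.3% and 23.2% were lower in the same order; the median of -0.44 was -0.89 in the lowest tercile. Along GFP the count of 0 was 5 at the lower size, 1 among Ccnb1-low cells, 5 in the lowest tercile and 2 for a high class from 10 UMIs, with 26.2%, 9.60%, 13.8% and 15.4% of all genes lower; the median of -0.31 was -0.63 and -0.094 in the lowest and highest tercile and -0.47 from 10 UMIs. Across Ccnb1 the median of -0.06 in the positive library was -0.12 by terciles of other G2/M genes. In the negative library the median of -0.05 was 0.060 among cells of 15000 to 30000 UMIs, -0.34 by those terciles, with 1 member lower (0.288% of all genes), and -0.11 for 0 against 3 or more Ccnb1 UMIs. The causes were not tested, except that a stricter or looser fold changes a count by its construction. Depth limits the smallest sets most: 72 high-Zscan4 cells in the lowest tercile left Cdc6 with an interval of 7.76 to 20.7 CPM.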

Other observations

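Outside the named genes, 2 further regulators of S phase and mitosis differed along Zscan4 level in the positive library; they were picked after their values were seen. Fbxo5, which encodes an inhibitor of the anaphase-promoting complex, had 226 CPM in cells with 10 or more thinned Zscan4 UMIs and 104 CPM in cells with 0, a log2 ratio of 1.12. Ccna2, which encodes cyclin A2, had 315 and 169 CPM (0.90), and between the libraries 204 against 106 CPM (0.94). Ung, a uracil glycosylase, was lower along Zscan4, with 32.2 against 74.3 CPM (-1.18), and Ticrr, a factor that helps load Cdc45, was higher in the positive library, with 86.6 against 24.8 CPM (1.76).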
